A study of Mus musculus with 6 samples.

Results

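TFIID is the factor that recognises the core promoters of genes read by RNA polymerase II, and 9 genes of this complex and of its germ cell paralogs are described here in neonatal mouse testis. The genes were taken as a list of names, with no threshold on a value, but with earlier results of these data known. All 9 were found by Ensembl identifier among the 57170 gene identifiers of the deposited table. They form 4 paralog pairs, Taf7l beside Taf7, Taf4b beside Taf4, Taf9b beside Taf9 and Tbpl1 beside Tbp, and the scaffold subunit Taf1 was taken with them. RNA came from whole testes of mice at postnatal day 5. The sKO group holds 4 libraries (sKO-1 to sKO-4) from testes in which Mdm2 was conditionally deleted in pre-meiotic germ cells, and the WT group holds 2 libraries (WT-1 and WT-2) from wild-type testes. Mdm2 encodes the ubiquitin ligase that restrains p53. The sources used here do not name the Cre driver, the strain or the animals behind a library, so p-values measure only the spread between these libraries, which may be technical. In whole testis, fewer cells of a type and less RNA per cell cannot be told apart.

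TFIID consists of the TATA-binding protein TBP and a set of TBP-associated factors (TAFs), and it nucleates the assembly of the other general transcription factors at a gene start. Germ cells are known for paralogs that stand in for general subunits. TAF7L takes the place of TAF7 in germ cells, and TAF4B, a paralog of TAF4 enriched in gonads, is needed in mice for the upkeep of spermatogonia, the mitotic germ cells of the testis. TAF9B is close to TAF9 and shares with it a place in TFIID and in the coactivator complex SAGA, and it is not restricted to germ cells. TBPL1, also called TRF2, resembles TBP but does not bind the TATA box, and mice need it for the maturation of spermatids.

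The libraries held 17990837 to 18394437 expected counts, and 17707 genes passed the filter on low counts, among them all 9 genes described here. Levels are given in CPM, counts divided by the library total after scaling between libraries. Mdm2 was at 37.6, 47.3, 41.8 and 45.1 CPM in sKO-1 to sKO-4, against 67.2 and 75.9 CPM in WT-1 and WT-2 (log2 fold change −0.74, edgeR adjusted p = 0.0241). That call was lost without WT-1 (0.171), WT-2 (0.111), sKO-2 (0.0561) or sKO-3 (0.0739). Over all 17707 genes, 2.30% were lower and 0.124% higher in sKO (edgeR adjusted p under 0.05). Of 17 marker genes of germ cells, 16 were lower by this rule and 0 higher. Their summed level was 122 to 199.8 CPM in the sKO libraries and 654 to 949 CPM in the WT libraries. The RNA-binding protein gene Dazl averaged 36.9 ± 9.02 CPM in sKO and 186 ± 44.3 CPM in WT, and the helicase gene Ddx4 averaged 20.1 ± 6.63 CPM in sKO and 99.4 ± 28.7 CPM in WT (SD, n = 4 and 2). Without WT-1 the calls of the markers were lost, as were almost all calls over all genes tested. Without any single sKO library 13 to 15 markers were lower, where 103 to 225 of all genes were lower. Beside the genotype, the libraries fell into a pair of subsets that the labels do not name: sKO-1, sKO-2 and WT-1 in subset 1, and sKO-3, sKO-4 and WT-2 in subset 2. The split was chosen with earlier results of these data known. Calls from fits with the subset as a term therefore describe these libraries and lend no independent support.

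The paralogs Taf7l, Taf9b and Taf4b were lower in sKO testes, and no general partner passed the test. Of the 9 genes, 3 were lower and 0 higher (edgeR quasi-likelihood test, adjusted p under 0.05 over all genes). Over all 17707 genes, 2.30% were lower and 0.124% higher by this rule. The log2 fold changes were −2.51 (SE 0.37, adjusted p = 0.0199) for Taf7l, −1.41 (SE 0.15, adjusted p = 0.0110) for Taf9b and −0.97 (SE 0.13, adjusted p = 0.0152) for Taf4b, from edgeR with n = 4 and 2. The fourth paralog, Tbpl1, was at −0.10 (SE 0.14, adjusted p = 0.855). At 5 of the 9 genes every sKO library lay below both WT libraries, which holds for 13.3% of all genes tested, and these were Taf7l, Taf7, Taf4b, Taf9b and Taf1. At 0 of them every sKO library lay above both, which holds for 9.79% of all genes. The median log2 fold change of the 9 genes was −0.50, beside 0.03 over all genes tested. Without WT-1 the calls of these genes were lost, as were almost all calls over all genes tested. The loss is therefore not particular to these genes. In that fit the log2 fold changes were −2.26 for Taf7l, −1.32 for Taf9b and −0.99 for Taf4b. Leaving out either WT library leaves 1 to compare with sKO libraries of both subsets. Why the calls were lost without WT-1 was not tested.

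**Figure D1:**
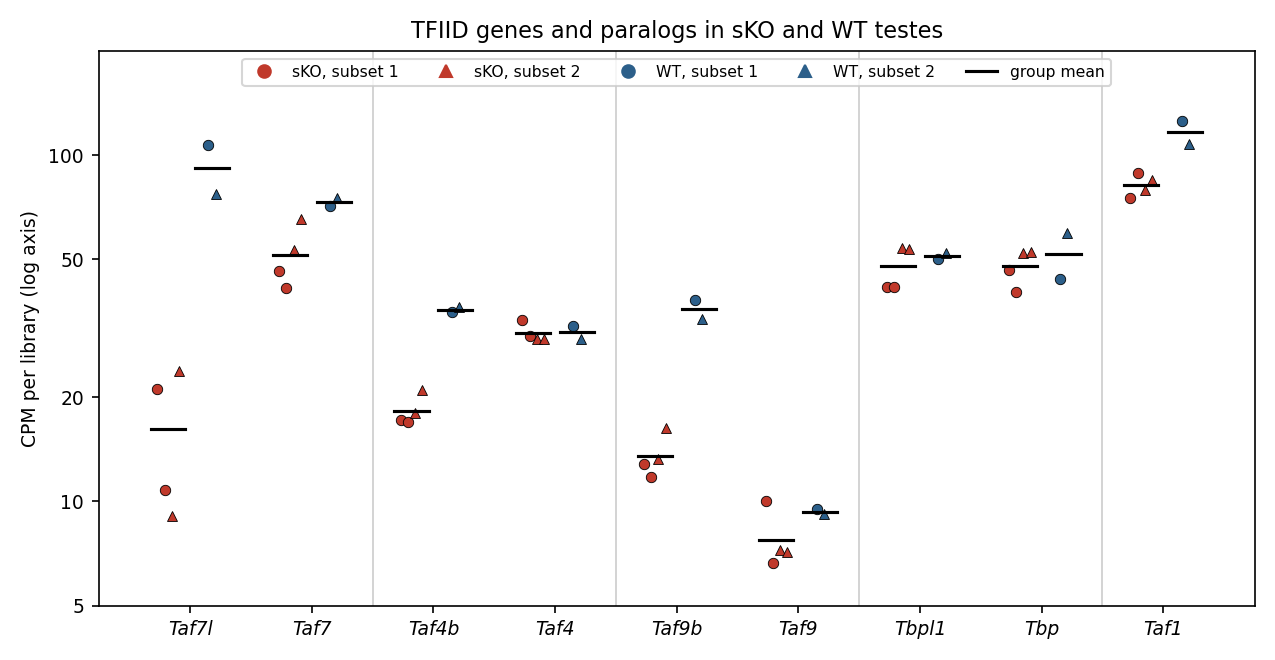
Level in CPM (log axis) of the 9 TFIID genes in each library, sKO left of WT for each gene; circles are subset 1, triangles subset 2 and bars the group means. For Taf7l, Taf4b and Taf9b the highest sKO library stays below the lowest WT library, while Taf4, Taf9, Tbpl1 and Tbp overlap between the groups.

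The promoters of 5 of these genes are shown so that a pair of paralogs that fell, Taf7l and Taf9b, can be read beside 3 genes that did not pass the test. Each line gives the 250 bases before the RefSeq start, on build GRCm38.p6, 5′ to 3′ on the gene's own strand. Capitals mark matches, on either strand, to 4 motifs chosen after these sequences were seen. The TATA box was searched as TATAAA. The motif named for its letters, bound by the factor NF-Y, was searched as CCAAT. The E-box that MYC and MAX proteins can bind was searched as CACGTG. The core of sites for ETS factors was searched as CCGGAA.
Taf7l (chrX:134476491-134476740, - strand): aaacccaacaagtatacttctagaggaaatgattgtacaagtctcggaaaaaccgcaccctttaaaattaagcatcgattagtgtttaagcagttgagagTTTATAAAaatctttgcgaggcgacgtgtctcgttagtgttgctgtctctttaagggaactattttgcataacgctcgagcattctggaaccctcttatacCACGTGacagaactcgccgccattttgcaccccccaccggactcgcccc
Taf9b (chrX:106221159-106221408, - strand): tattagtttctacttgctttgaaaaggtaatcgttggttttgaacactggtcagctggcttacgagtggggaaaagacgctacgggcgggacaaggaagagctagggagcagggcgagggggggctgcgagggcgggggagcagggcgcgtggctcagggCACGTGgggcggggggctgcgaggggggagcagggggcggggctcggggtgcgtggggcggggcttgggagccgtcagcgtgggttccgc
Taf9 (chr13:100651093-100651342, + strand): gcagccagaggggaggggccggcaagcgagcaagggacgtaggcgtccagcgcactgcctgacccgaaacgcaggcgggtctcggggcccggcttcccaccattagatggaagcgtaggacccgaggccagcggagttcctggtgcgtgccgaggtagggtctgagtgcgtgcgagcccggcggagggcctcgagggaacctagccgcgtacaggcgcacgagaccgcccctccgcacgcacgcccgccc
Tbpl1 (chr10:22731448-22731697, - strand): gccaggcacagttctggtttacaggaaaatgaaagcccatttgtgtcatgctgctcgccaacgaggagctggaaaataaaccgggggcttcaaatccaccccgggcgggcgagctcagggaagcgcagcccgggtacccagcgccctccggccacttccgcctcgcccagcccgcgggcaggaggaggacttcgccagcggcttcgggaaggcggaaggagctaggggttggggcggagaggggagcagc
Tbp (chr17:15499638-15499887, + strand): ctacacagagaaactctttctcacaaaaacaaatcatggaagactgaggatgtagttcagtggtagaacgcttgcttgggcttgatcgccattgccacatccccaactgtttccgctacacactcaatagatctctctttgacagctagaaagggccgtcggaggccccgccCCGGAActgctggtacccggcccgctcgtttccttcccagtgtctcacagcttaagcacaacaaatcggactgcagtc
The hexamer CACGTG stands once in the Taf7l window, from base −49 before the start, and once in the Taf9b window, from base −90. The promoter table has entries for 7 of the 9 genes. It lacks Taf7 and Taf4b, a paralog that also fell, so their windows were not read. Whether the hexamer divides the genes that fell from the others is therefore not known. The windows of Taf9, Tbpl1, Tbp, Taf4 and Taf1 do not hold the hexamer. For Taf9b and Taf9, with 2 starts listed each, the first was read. Of 32851 mouse promoter windows of this length, 6.02% hold that hexamer, 12.4% hold TATAAA, 33.9% hold CCAAT and 12.0% hold CCGGAA. The TATAAA of Taf7l lies from base −148 and overlaps a match on the opposite strand, read as TTTATA, from base −150. Tbp holds 1 CCGGAA and none of the other motifs, the windows of Taf4 and Taf1 hold 2 and 3 CCAAT, and those of Taf9 and Tbpl1 hold none of the 4 motifs. The Taf7l window is 44.8% G and C, that of Taf9b 66.8% and those of Taf9, Tbpl1 and Tbp 71.6%, 65.6% and 52.0%, where the median of all windows is 52.4%. A match in such a window is a description of its letters and does not show binding.

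Taf7l, which encodes the germ cell counterpart of TAF7 and lies on the X chromosome, had the largest difference of the 9 genes. Its level was 21.2, 10.8, 9.07 and 23.7 CPM in sKO-1 to sKO-4, against 107 and 77.3 CPM in WT-1 and WT-2. Every sKO library lay far below both WT libraries, and sKO-2 and sKO-3 were the low ones of their group, 1 in each library subset. The means were 16.2 ± 7.35 CPM in sKO and 92.0 ± 20.8 CPM in WT (SD, n = 4 and 2), so that sKO stood at 0.176 times the WT level. The 95% interval of the log2 fold change ran from −3.36 to −1.66. Within subset 1 the log2 fold change was −2.76 and within subset 2 it was −2.24. The Taf7l call was lost without WT-1 (log2 fold change −2.26, edgeR adjusted p = 0.216) and without sKO-2 (−2.35, adjusted p = 0.0561).

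Taf7 encodes the general subunit, which binds TAF1 within TFIID. It was at 46.2, 41.2, 53.2 and 65.5 CPM in sKO-1 to sKO-4, against 71.1 and 75.0 CPM in WT-1 and WT-2. The sKO libraries all lay below WT, but the gap between sKO-4 and WT-1 was small. The log2 fold change of Taf7 was −0.50 (SE 0.17, 95% interval −0.91 to −0.10) and did not pass the test (adjusted p = 0.246). With a term for the library subset, Taf7 passed (−0.52, edgeR adjusted p = 0.0147), as 8.65% of all genes did in the lower direction and 4.97% in the higher. The count ratio of Taf7l over Taf7 within a library, which does not depend on library scaling, was 0.459, 0.262, 0.171 and 0.363 in sKO-1 to sKO-4, against 1.501 and 1.03 in WT-1 and WT-2. The mean log2 ratio was −1.77 ± 0.62 in sKO and 0.31 ± 0.38 in WT (SD, n = 4 and 2), a difference of −2.08. A two-sided exact permutation test over the 15 assignments of the libraries gave p = 0.0667, the smallest it allows in this design (0.0889 adjusted over the 4 pairs).

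**Figure D2:**
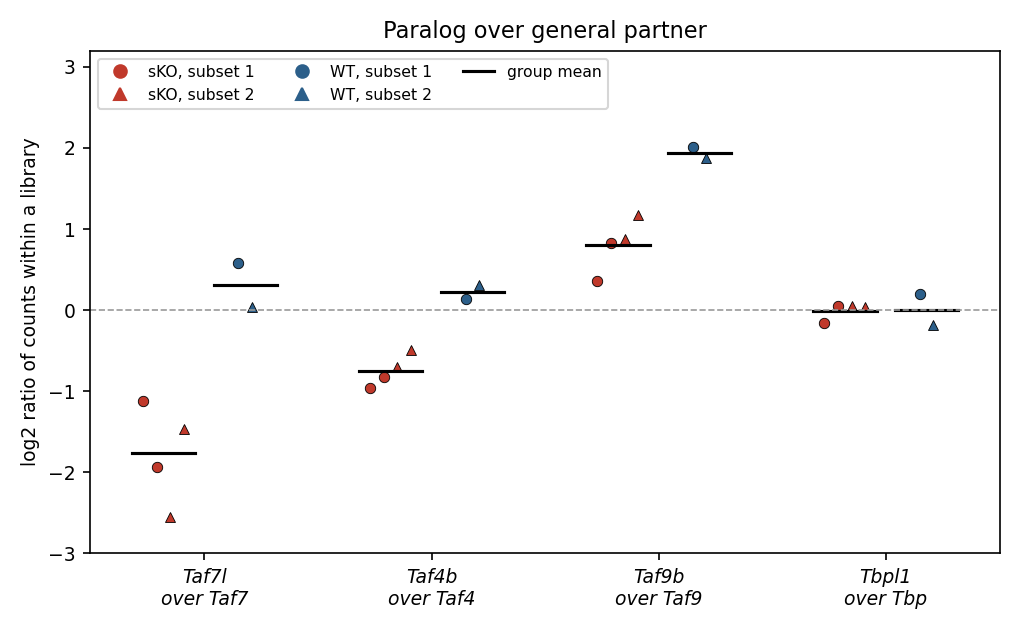
Log2 ratio of the counts of each paralog over those of its general partner within a library, sKO left of WT; circles are subset 1, triangles subset 2 and bars the group means. The sKO and WT libraries do not overlap for Taf7l over Taf7, Taf4b over Taf4 and Taf9b over Taf9, and they overlap for Tbpl1 over Tbp.

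Taf4b encodes a gonad-enriched form of TAF4, the subunit that helps hold TFIID together. Its level was 17.1, 16.98, 18.02 and 20.9 CPM in sKO-1 to sKO-4, against 35.3 and 36.3 CPM in WT-1 and WT-2. The libraries of each group lay close together and far from the other group, with means of 18.3 ± 1.83 CPM in sKO and 35.8 ± 0.767 CPM in WT (SD, n = 4 and 2). The sKO level was 0.510 times that of WT, with a 95% interval of the log2 fold change from −1.27 to −0.68. The Taf4b call was lost without WT-1 (log2 fold change −0.99, edgeR adjusted p = 0.171) and without WT-2 (−0.98, adjusted p = 0.0615). Within the library subsets the log2 fold changes were −1.07 and −0.91.

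Taf4, the general partner, was at 33.4, 30.0, 29.5 and 29.5 CPM in sKO-1 to sKO-4, against 32.1 and 29.4 CPM in WT-1 and WT-2. The groups overlapped, and the 95% interval of the Taf4 log2 fold change was −0.27 to 0.25. The count ratio of Taf4b over Taf4 was 0.514, 0.565, 0.612 and 0.709 in sKO-1 to sKO-4, against 1.10 and 1.24 in WT-1 and WT-2. The difference in mean log2 ratio was −0.97, with −1.03 in subset 1 and −0.91 in subset 2. The exact permutation test gave p = 0.0667, again the smallest possible.

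Taf9b, on the X chromosome, was at 12.8, 11.8, 13.3 and 16.2 CPM in sKO-1 to sKO-4, against 38.2 and 33.7 CPM in WT-1 and WT-2. The groups lay far apart, and sKO-4 was the highest sKO library. The means were 13.5 ± 1.91 CPM in sKO and 36.0 ± 3.198 CPM in WT (SD, n = 4 and 2), which puts sKO at 0.376 times WT, with a 95% interval of the log2 fold change from −1.77 to −1.05. The log2 fold change of Taf9b was −1.66 in subset 1 and −1.20 in subset 2. Its call was lost without WT-1 (−1.32, edgeR adjusted p = 0.142) and held without each other library.

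Taf9 could not be measured cleanly. The gene shares 73.8% of its annotated exon bases with Ak6, an adenylate kinase gene on the same strand. None of its 6 deposited values was whole (within 0.005), which also held for Tbpl1, Tbp and Taf1, whereas all values of the 5 other genes were whole. Taf9 was assigned 10.003, 6.64, 7.22 and 7.16 CPM in sKO-1 to sKO-4, against 9.50 and 9.18 CPM in WT-1 and WT-2. Only sKO-1 lay above WT, and the log2 fold change was −0.27 (95% interval −0.76 to 0.22). Taf9 and Ak6 summed were at 99.1, 87.2, 119 and 125 CPM in sKO-1 to sKO-4, against 127 and 155 CPM in WT-1 and WT-2. Fitted as 1 row, Taf9 and Ak6 stood at −0.39 on the log2 scale (SE 0.16), with an edgeR adjusted p of 0.354. With the subset term that row passed (−0.39, edgeR adjusted p = 0.00520), as did Ak6 alone (−0.40, 0.00403), while Taf9 alone did not (−0.27, 0.345).

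The count ratio of Taf9b over Taf9 was 1.28, 1.77, 1.83 and 2.25 in sKO-1 to sKO-4, against 4.02 and 3.66 in WT-1 and WT-2. The groups did not overlap, the difference in mean log2 ratio was −1.13, and the exact permutation test gave p = 0.0667, the smallest possible. The difference was −1.41 in subset 1 and −0.85 in subset 2. With the Ak6 counts added to those of Taf9, a comparison chosen after seeing the data, it was −1.02.

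Tbpl1 was at 41.6, 41.7, 53.9 and 53.7 CPM in sKO-1 to sKO-4, against 50.2 and 52.3 CPM in WT-1 and WT-2. The sKO libraries of subset 1 were the low ones and those of subset 2 stood slightly above WT, so the groups overlapped. The 95% interval of the log2 fold change, −0.43 to 0.23, leaves out a change of the size seen for Taf7l, Taf9b or Taf4b. Tbp was at 46.4, 40.3, 52.1 and 52.5 CPM in sKO-1 to sKO-4, against 43.9 and 59.7 CPM in WT-1 and WT-2. The log2 fold change of Tbp was −0.11 (95% interval −0.48 to 0.25, adjusted p = 0.857), and the WT libraries were the lowest but one and the highest of the 6. The log2 count ratio of Tbpl1 over Tbp averaged −0.01 ± 0.10 in sKO and 0.00 ± 0.27 in WT (SD, n = 4 and 2), and the exact permutation test gave p = 1. That difference was −0.25 in subset 1 and 0.23 in subset 2. Exons of Tbp overlap Pdcd2 on the opposite strand over 19.0% of their bases, and those of Tbpl1 overlap Slc2a12 over 12.4%. The strand setting of the counting is not stated, so reads of these overlaps are uncertain.

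Taf1 encodes the largest TFIID subunit, on which the complex is built, and it has no partner among the genes described here. It was at 75.3, 88.7, 79.0 and 84.8 CPM in sKO-1 to sKO-4, against 125 and 108 CPM in WT-1 and WT-2. All sKO libraries lay below both WT libraries, and the log2 fold change of −0.51 (SE 0.10, 95% interval −0.74 to −0.27) missed the threshold narrowly (edgeR adjusted p = 0.0523). When the subset, chosen with these data known, was a term of the fit, Taf1 passed at −0.50 (edgeR adjusted p = 0.00458). It also passed with DESeq2 (−0.50, adjusted p = 0.00850) and with no count filter (adjusted p = 0.0323). Over all 17 alternatives Taf1 passed in 5 and did not pass in 12, among them limma-voom, RLE factors and upper-quartile factors. Taf7l, Taf9b and Taf1 all lie on the X chromosome. Of 667 X-linked genes tested, 66 (9.90%) were lower in sKO and 1 was higher, and their median was 0.05 on the log2 scale. Among all 17707 genes tested, 2.30% were lower and 0.124% higher, with a median of 0.03.

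**Figure D3:**
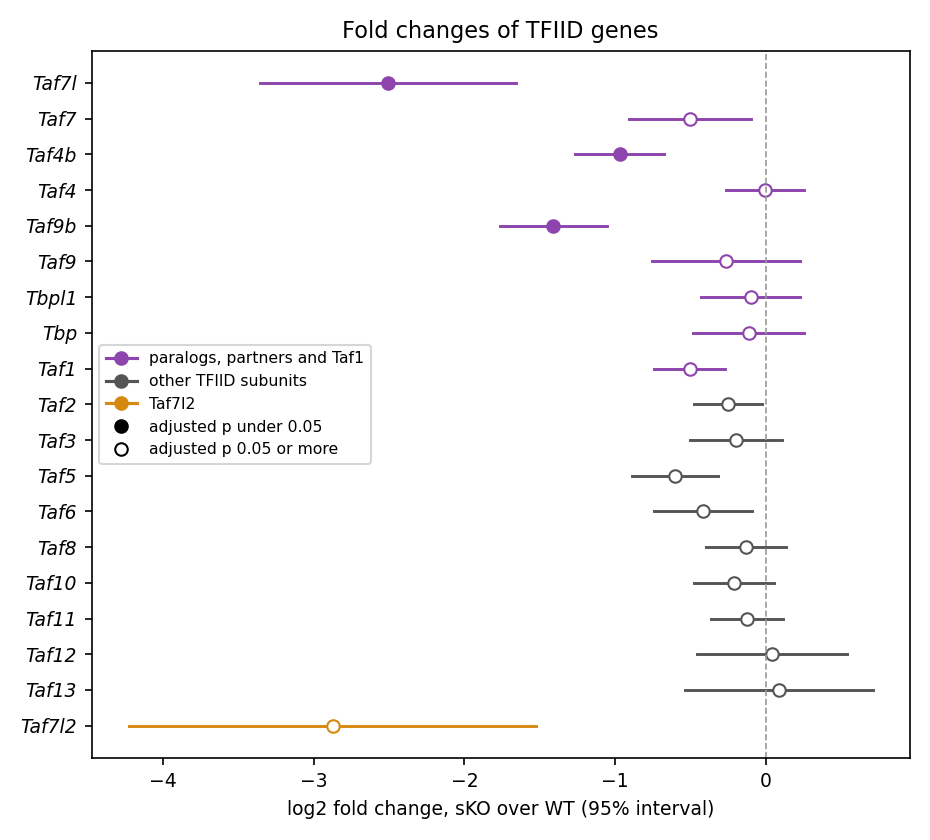
Log2 fold change, sKO over WT, with 95% intervals from the edgeR fit, for the 9 genes (purple), the 9 other TFIID subunits (grey) and Taf7l2 (orange); filled points have an adjusted p under 0.05. Only Taf7l, Taf4b and Taf9b are filled among the 19 genes plotted, and the intervals of Taf7, Taf1, Taf2, Taf5, Taf6 and Taf7l2 also lie below 0.

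No other TFIID subunit passed the test. Of 9 measured, 0 were lower and 0 higher, with log2 fold changes from −0.60 to 0.08 and a median of −0.20, beside 0.03 over all genes tested. At an unadjusted p under 0.05, 3 of them (Taf2, Taf5 and Taf6) and 13.1% of all genes passed in edgeR. DESeq2 and limma-voom each called 1 of them lower. Over all genes, DESeq2 called 648 of 19909 lower and limma-voom 446 of 17707. Taf5, whose product forms part of the TFIID core, was at 16.1, 17.03, 15.2 and 16.5 CPM in sKO-1 to sKO-4, against 25.9 and 23.4 CPM in WT-1 and WT-2. Every sKO library was below WT, and the adjusted p of its log2 fold change (−0.60, SE 0.12) was 0.0530 in edgeR, 0.0461 in limma-voom and 0.00593 in DESeq2.

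Taf6, which pairs with TAF9 through histone-fold domains, averaged 27.6 ± 3.10 CPM in sKO and 36.8 ± 4.06 CPM in WT (SD, n = 4 and 2; log2 fold change −0.42, adjusted p = 0.231). Taf2, a subunit that contacts promoter DNA, averaged 86.3 ± 5.70 CPM in sKO and 103 ± 9.32 CPM in WT (−0.25, adjusted p = 0.317). When the subset was a term of the fit, Taf5, Taf6 and Taf2 were lower, with edgeR adjusted p of 0.00447, 0.0187 and 0.0134. Taf3, a reader of histone H3 methylation, Taf10, Taf8 and Taf11 had log2 fold changes of −0.20, −0.21, −0.13 and −0.12. Taf12 and Taf13 were at 0.04 and 0.08. Taf13 was high in both genotypes of subset 1 and low in both of subset 2, with 39.4, 39.95, 23.7 and 24.4 CPM in sKO-1 to sKO-4, against 35.0 and 25.1 CPM in WT-1 and WT-2.

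Taf7l2, a further Taf7-like gene on chromosome 10, was at 0.529, 0.321, 0.0578 and 0.462 CPM in sKO-1 to sKO-4, against 3.27 and 1.86 CPM in WT-1 and WT-2. The highest library, WT-1, held 63 counts, so counting error is not small at these levels. The sKO libraries all lay below WT. Its log2 fold change was −2.87 (SE 0.58) and missed the threshold (edgeR adjusted p = 0.0526), while DESeq2 gave an adjusted p of 0.00197. It also passed in edgeR with the subset term (0.00557), in subset 1 alone (0.00744) and with no count filter (0.00674), but not in subset 2 alone (0.109). Tbpl2, the TBP paralog of oocytes, had 0 counts in all 6 libraries. Gtf2a1l, a germ cell form of a TFIIA subunit, had 1 count in WT-1 and 0 in the others. Of 8 spermatid genes, among them the protamines Prm1 and Prm2, none passed the count filter, and the highest value of any was 7 counts in a library.

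No other general factor passed the test. Of 17 genes of TFIIA, TFIIB, TFIIE, TFIIF and TFIIH, 0 were lower and 0 higher (median log2 fold change −0.18). With the subset term 5 were lower, and by that rule 8.65% of all genes were lower and 4.97% higher. At an unadjusted p under 0.05 in edgeR, 2 passed (Gtf2f1 and Ercc3), as did 13.1% of all genes, and DESeq2 called 0. The most abundant over the 6 libraries were Gtf2f1, a TFIIF subunit gene (−0.18), and Gtf2h1, a TFIIH subunit gene (−0.11). Of 16 SAGA subunits not shared with TFIID, 0 passed in either direction (median 0.02), with the scaffold gene Trrap at −0.07 and the deubiquitinase gene Usp22 at −0.02. Of 8 factors that serve TBP at other promoters or move it, 0 passed (median −0.17), with Taf1d of the RNA polymerase I factor at 0.01 and Brf1 of TFIIIB at −0.02. At an unadjusted p under 0.05, 1 SAGA gene (Kat2a) and 0 of the 8 factors passed, and DESeq2 called 0 in either list. With the subset term, 2 SAGA genes were lower, Taf5l (−0.22, edgeR adjusted p = 0.0452) and the acetyltransferase gene Kat2a (−0.20, 0.0402), and 0 of the 8 factors passed.

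The paralogs were also set against germ cell transcripts. The median of the germ cell list was −2.29 on the log2 scale, with members from −2.83 to −1.59, and Taf7l at −2.51 lay within that span while Taf9b at −1.41 and Taf4b at −0.97 lay above it. Taf7l counts equalled 11.0%, 8.16%, 7.45% and 11.9% of the summed germ cell list in sKO-1 to sKO-4, against 11.2% and 11.8% in WT-1 and WT-2. These values overlapped (difference in mean log2 ratio −0.29, exact permutation p = 0.267).

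Taf9b counts equalled 6.63%, 8.93%, 10.9% and 8.13% of that list in sKO-1 to sKO-4, against 4.03% and 5.15% in WT-1 and WT-2. Taf4b counts equalled 8.88%, 12.9%, 14.8% and 10.5% in sKO-1 to sKO-4, against 3.71% and 5.56% in WT-1 and WT-2. Both ratios were higher in every sKO library than in both WT libraries, by 0.90 for Taf9b and 1.35 for Taf4b on the log2 scale. The exact permutation test gave p = 0.0667 for each, the smallest possible, or 0.0750 adjusted over the 9 genes. The list was chosen with earlier results known, and its summed level itself differed by −2.32 on the log2 scale without overlap. A gene that fell clearly less than the list can therefore reach this p. It restates the fall of the list and lends no independent support. The ratios of Taf7, Taf4, Taf9, Tbpl1, Tbp and Taf1 to the list differed by 1.80 to 2.31 on the log2 scale between sKO and WT and did not overlap, with the same p. Which cells supply each transcript was not tested.

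**Figure D4:**
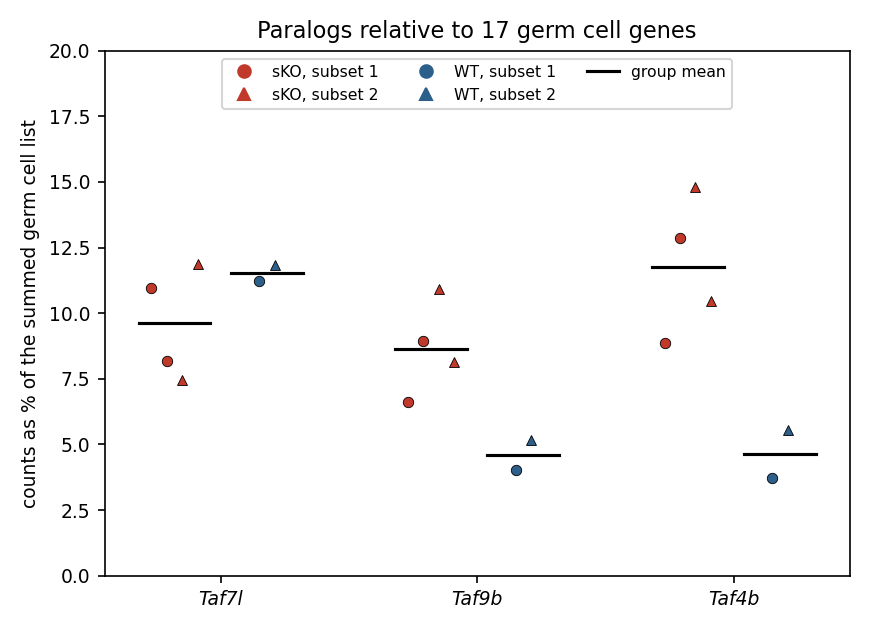
Counts of Taf7l, Taf9b and Taf4b as a percentage of the summed counts of 17 germ cell genes in each library, sKO left of WT; circles are subset 1, triangles subset 2 and bars the group means. Taf7l overlaps between sKO and WT, while Taf9b and Taf4b are higher in all 4 sKO libraries.

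Levels between genes were compared per kilobase of median transcript length. In sKO, Tbp (24.2 ± 2.90 CPM per kilobase) and Tbpl1 (23.5 ± 3.45) were highest, followed by Taf7 (15.6 ± 3.198), Taf1 (11.4 ± 0.828), Taf7l (10.5 ± 4.76), Taf4 (6.96 ± 0.427), Taf9b (5.26 ± 0.743), Taf9 (4.86 ± 0.952) and Taf4b (3.55 ± 0.355). In WT, Taf7l was highest (59.6 ± 13.5 CPM per kilobase), followed by Tbp (26.2 ± 5.64), Tbpl1 (25.2 ± 0.722), Taf7 (22.1 ± 0.837), Taf1 (16.1 ± 1.69), Taf9b (13.98 ± 1.24), Taf4 (6.99 ± 0.431), Taf4b (6.96 ± 0.149) and Taf9 (5.85 ± 0.141). Errors are SD over 4 sKO and 2 WT libraries. In WT the neighbours Tbp and Tbpl1, Taf1 and Taf9b, and Taf4 and Taf4b lay within their spread, and in sKO so did Tbp and Tbpl1, Taf1 and Taf7l, Taf7l and Taf4, and Taf9b and Taf9. Per kilobase, the mean of Taf7l was below that of Taf7 in sKO, where their SDs overlapped, and above it in WT, and Taf4b stood below Taf4 in sKO and level with it in WT. The order of Taf9 rests on reads that Ak6 shares.

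Across the 6 libraries Taf4b and Taf9b followed each other closely (Pearson r of log2 CPM 0.99), and Taf7l followed Taf9b (0.96) and Taf4b (0.94). Taf1 had r of 0.92 with Taf9b, 0.91 with Taf4b and 0.86 with Taf7l. The general partners differed in their r with the 3 paralogs that fell. It was 0.81 to 0.88 for Taf7, 0.53 to 0.71 for Taf9, 0.24 to 0.38 for Tbp and −0.05 to 0.24 for Taf4. These values rest on 6 libraries in 2 groups and largely restate the group difference. Among other named genes, the patterns most like Taf7l were those of Dus1l, Tex19.1, Tex13b, Cyct and Hormad2, with r from 0.9975 to 0.9986. Tex19.1 averaged 8.63 CPM in sKO and 41.6 CPM in WT, and Dus1l averaged 29.9 CPM in sKO and 36.8 CPM in WT, so a like pattern did not mean a like size. Those most like Taf4b were Ero1l, Psmd2, Cnn1, Piwil4 and Ccnb1, with r from 0.9963 to 0.9985. The proteasome subunit gene Psmd2 averaged 229 CPM in sKO and 327 CPM in WT.

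Beside germ cells, lists of 5 further testis cell types were measured. In the main test, 2.30% of all genes were lower and 0.124% higher. Of 10 Sertoli cell genes 1 was higher and 0 lower, with summed levels of 4596 to 5395 CPM in sKO and 3955 to 4909 CPM in WT. The higher one was Amh, which encodes anti-Müllerian hormone, with 471 ± 22.9 CPM in sKO and 345 ± 1.005 CPM in WT (SD, n = 4 and 2; log2 fold change 0.45, edgeR adjusted p = 0.0429). In the same list 5 genes passed an unadjusted p under 0.05 in edgeR, as did 13.1% of all genes. DESeq2 called 1 higher and 1 lower, where it called 81 higher and 648 lower of 19909 genes. With the subset term Amh, Inha and Gata4 were higher and Cldn11 and Dmrt1 were lower. By that rule 8.65% of all genes were lower and 4.97% higher. Of 5 peritubular muscle genes 1 was lower, with summed levels of 498 to 662 CPM in sKO and 626 to 806 CPM in WT. The lower one was Cnn1, a smooth muscle calponin gene, with 0.878 ± 0.169 CPM in sKO and 2.92 ± 0.169 CPM in WT (SD, n = 4 and 2; −1.73, edgeR adjusted p = 0.0323). DESeq2 and the fit with no count filter each called 2 peritubular genes lower. Over all genes, they called 648 of 19909 and 541 of 32550 lower. With the subset term Cnn1, Myh11 and Tagln were lower (edgeR adjusted p of 0.00431, 0.00412 and 0.0397). The Amh call was lost whichever library was left out, and the Cnn1 call was kept only without sKO-3. None of 6 Leydig, 5 endothelial and 5 macrophage genes passed, in edgeR at an unadjusted p under 0.05 or in DESeq2, with summed levels of 797 to 1202, 225 to 293 and 45.7 to 56.0 CPM in sKO and of 719 to 906, 215 to 239 and 53.5 to 57.0 CPM in WT. With the subset term Cdh5 was higher (0.27, edgeR adjusted p = 0.0195) and no other gene of these 3 lists passed. Each subset alone holds 1 WT library. In subset 2 alone the log2 fold changes were 0.31 for Cdh5 and 0.53 and 0.27 for the Leydig genes Cyp17a1 and Hsd3b1. In subset 1 alone they were 0.19, 1.54 and 0.21. The most abundant of these were the steroidogenic genes Hsd3b1 and Hsd17b3 in the Leydig list (log2 fold changes 0.26 and 0.20), the endothelial cadherin gene Cdh5 and receptor gene Kdr (0.27 and −0.10), and the macrophage receptor genes Mrc1 and Csf1r (−0.18 and −0.19). The part of these shifts in the values of the TFIID genes was not tested.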

How the data were processed

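Whole-testis polyadenylated RNA was sequenced in 4 sKO and 2 WT libraries, grouped by their titles; the design text speaks of 3 replicates per group, and the labels were used. The authors deposited expected counts for 57170 gene identifiers. Per the submitters' processing notes fastp, STAR, RSEM and mm39 were used. Roles, versions, annotation and strand setting are not stated. Shared reads can be divided between overlapping genes, which are therefore uncertain. Symbols came from GENCODE M21 (GRCm38), which matched 90.5% of identifiers and 99.2% of counts; 444 identifiers are not Ensembl ones. Taf7l2 was matched through its RefSeq synonym.

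Expected counts were rounded. Genes were filtered with filterByExpr (minimum count 10), scaled by TMM and tested with edgeR 4.0.16 (R 4.3.3; quasi-likelihood, two-sided, no covariate, Benjamini-Hochberg over 17707 genes, threshold 0.05). SE is the log2 fold change divided by the root of F. Log2 CPM carry a prior count of 2. Ratios within a library used a pseudocount of 0.5 and an exact permutation test on the absolute difference of means over 15 assignments. Length is the median of basic protein-coding transcripts. Replicates differed beyond sampling noise (chi-square per gene 4.08 to 24.7) and none were pooled. Totals of 17990837 to 18394437 counts per library set the counting error.

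The 9 genes and all lists were chosen with earlier results of these data known, as was the library subset split. Named genes are the 9, Mdm2, all other TFIID subunits and paralogs, of each further list the members past the threshold or else the 2 most abundant, Dazl and Ddx4, and the 5 genes most correlated with Taf7l and with Taf4b. Ak6, Pdcd2, Slc2a12, Ercc3, Kat2a, Taf5l, Inha, Gata4, Cldn11, Dmrt1, Myh11, Tagln, Cyp17a1, Prm1 and Prm2 were named after their values were seen. Alternatives were DESeq2 1.42.0, limma-voom 3.58.1, RLE and upper-quartile factors, no count filter, 1 CPM in 4 libraries, left-out libraries, the replicate number as a block, the subset as a term and each subset alone, counts not rounded, and a pseudocount of 2. The main fit was tested on simulated counts that carried a group effect only, without the library subsets seen in these data.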

Additional observations from a re-analysis of the deposited data

Results flagged for a closer look

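Among 33 sets of 4 sKO values checked, 2 held a library far from the others. Chance alone flags about 1 set in 20, so 2 of 33 is near the number that chance gives. Taf4 was at 33.4 CPM in sKO-1, against 29.5 to 30.0 CPM in the other sKO libraries. The log2 ratio of Tbpl1 over Tbp was −0.16 in sKO-1, against 0.03 to 0.05 in the other sKO libraries. The Taf4 value lies above both WT libraries (32.1 and 29.4 CPM), and the ratio lies between those of the WT libraries (0.19 and −0.19). Neither Taf4 nor the ratio passed its test between sKO and WT.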

How the results depend on the processing

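Taf7l, Taf9b and Taf4b stayed lower in all 17 alternatives each, and their calls were lost only in the fits without a library that are named with them. The number of the 9 genes lower, 3 in the main test, was 0 to 3 without single libraries, 5 with the library subset term and 5 in subset 1 alone. Over all genes, 408 were lower and 22 higher. These numbers were 648 and 81 with DESeq2, 1531 and 880 with the subset term, 946 and 282 in subset 1 alone, and 1 to 225 and 2 to 7 without single libraries. In subset 2 alone 267 were higher. With the replicate number as a block, among the 4 libraries numbered 1 and 2, 268 genes were lower, and Taf7 joined the lower genes (log2 fold change −0.76, edgeR adjusted p = 0.0473); no other call of the 9 genes changed. Under that block the log2 ratio differences were −1.84 for Taf7l over Taf7, −1.11 for Taf4b over Taf4, −1.35 for Taf9b over Taf9 and −0.06 for Tbpl1 over Tbp. Deviations of same-numbered libraries correlated at 0.42 (number 1) and −0.44 (number 2). With 2 WT libraries the WT deviations mirror each other, and sKO-1 correlated at −0.42 with WT-2. This check therefore cannot settle whether the numbers pair the libraries.

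Values near 0 changed sign. The log2 ratio difference of Tbpl1 over Tbp ran from −0.20 to 0.18 without single libraries. The log2 fold change of Taf4 was 0.0013 with DESeq2, 1.2e-04 with upper-quartile factors, 0.0043 with no count filter, 0.032 with the block, and −0.097 to 0.058 without single libraries. Tbpl1 was at 0.034 in subset 2 alone, and Tbp at −0.32 to 0.10 without single libraries. Taf12 was at −0.12 in subset 2 alone and −0.12 to 0.18 without single libraries, and Taf13 at −0.070 and −0.16 to 0.34. None of these genes passed the test in any alternative; the cause was not tested. With 2 WT libraries, leaving out either leaves 1 that is assumed to vary like sKO.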
